A study of Mus musculus with 4 samples.

Results

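The HNF, FOXA and GATA endoderm factors were followed as a set of 8 genes chosen by name from these transcription factor families, *Hnf4a*, *Hnf4g*, *Foxa1*, *Foxa2*, *Foxa3*, *Gata4* and *Gata6*, together with the homeobox gene *Prox1*. They are 8 of the 24391 genes in the table of RNA-seq read counts, and 7 of them, all but *Foxa1*, had enough counts to be tested. The tissue was whole mouse embryonic pancreas at E18.5. The *Rest* pKO embryos carried Pdx1Cre RESTLoxP/LoxP and the control embryos Pdx1Cre RESTwt, so both groups carried the Cre transgene, and both were of a mixed strain with C57BL/6. There were 2 libraries per genotype. The conditional allele loses exon 4 of *Rest*, the repressor of neuronal genes, only where *Pdx1-Cre* is active, which is the pancreatic epithelium and not the mesenchyme, vessels or nerves that were also in the organ. In such whole-organ RNA, fewer cells of a type and less RNA per cell cannot be told apart.

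The FOXA proteins are forkhead factors that open closed chromatin ahead of other factors, and the GATA proteins are zinc finger factors that often bind beside them. HNF4A and HNF4G are nuclear receptors that hold epithelial genes of liver, gut and pancreas active. In the mouse pancreas, *Foxa1* with *Foxa2*, and *Gata4* with *Gata6*, overlap in function early on, so that loss of both members of either pair stops the organ from growing, and PROX1 is a progenitor factor that also defines lymphatic vessels.

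*Rest* itself was counted at 12.1 and 9.16 CPM in *Rest* pKO pancreas, against 14.2 and 15.7 CPM in controls, where CPM are counts per 1000000 counts of a library whose size was corrected by TMM. Its log2 fold change (*Rest* pKO over control) was −0.49 with an interval of −1.03 to 0.04, and it did not pass edgeR's test (adjusted p = 0.593). Counts over all exons and all cells do not measure the loss of exon 4. Library totals ran from 16936759 to 24134100 counts. *Xist* and Y-linked counts gave 1 female and 1 male library in each genotype, so the libraries of a group came from different embryos. Acinar marker genes took 28.9% to 35.8% of the counts, highest in *Rest* pKO replicate 2. The 7 liver markers summed to 94.8 and 14.6 CPM in *Rest* pKO libraries, against 662 and 14.2 CPM in controls. Several markers, among them the globin genes *Hba-a1*, *Hba-a2* and *Hbb-b1*, were listed at 0 in all 4 libraries, so a 0 in this table need not mean that a gene is silent.

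REST binds a long composite element, and the genome around the 8 genes was searched for it on both strands as TTCAGCACC followed after 2 bases of any kind by GGACAGC, with at most 2 of the 16 fixed positions different, within 100 kb of each gene start (mm9). Of 8 genes, 2 had such a match, *Hnf4a* with 2 matches and *Foxa3* with 1, and 24.0% of 22367 protein-coding genes had one by the same rule. The matches are printed because they are the only ones near these genes, 5′ to 3′ on the strand that reads the element, with capitals for the positions compared and 21 bases of flank on each side.
*Hnf4a* intron, chr2:163390582-163390599, minus strand: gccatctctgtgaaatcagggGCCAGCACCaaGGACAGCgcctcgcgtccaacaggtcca
*Hnf4a* upstream, chr2:163265111-163265128, plus strand: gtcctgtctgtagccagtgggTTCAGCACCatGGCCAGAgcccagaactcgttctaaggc
*Foxa3* downstream, chr7:19536947-19536964, minus strand: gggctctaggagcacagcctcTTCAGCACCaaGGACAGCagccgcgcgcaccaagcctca
The intronic match lay 58.0 kb downstream of the first *Hnf4a* start and differed from the element by T1G and T2C, with positions counted from 1 at its 5′ end. The upstream match lay 67.4 kb before that start, inside an intron of *Gdap1l1* and 899 bases from the *Gdap1l1* start, and differed by A14C and C18A. The match near *Foxa3* was exact, as for 1.37% of protein-coding genes. It lay 71.9 kb from the *Foxa3* start, inside an intron of *Nova2*, a gene for a neuronal splicing factor. A match of letters is a description of the sequence and not a binding site, and *Hnf4g*, *Foxa1*, *Foxa2*, *Gata4*, *Gata6* and *Prox1* had no match under this rule. The paper mapped REST binding by ChIP-seq in younger embryonic pancreas. It lists *Hnf4a* among the loci with a bound region. It also names *Prox1* for a region bound in pancreas and in neither stem cell type compared. Those regions were not set against the matches here.

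*Hnf4a* has a distal promoter, used mainly in the pancreas, and a proximal one, used in the liver. Gene-level counts sum the transcripts of both. The distal one is shown from RefSeq (GRCm38.p6, plus strand, 250 bases before the start to 50 after it) because it is the pancreatic one and because the letters of the GATA factors stand in it. Capitals mark AGATAA, the GATA motif, which was searched on both strands.
*Hnf4a* distal, chr2:163506607-163506906: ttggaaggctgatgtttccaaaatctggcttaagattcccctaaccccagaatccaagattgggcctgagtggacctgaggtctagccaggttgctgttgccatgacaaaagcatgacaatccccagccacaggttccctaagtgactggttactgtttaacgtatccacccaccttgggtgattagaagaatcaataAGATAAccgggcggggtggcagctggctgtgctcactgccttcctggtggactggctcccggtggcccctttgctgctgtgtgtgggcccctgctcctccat
The distal promoter held the GATA letters at −52 from its start. Of 32851 RefSeq promoters of this length, 11.2% held AGATAA. No match was found in either *Hnf4a* promoter for CAAAGTCC (HNF4) or for TGTTTAC and TATTTAC (FOXA), which stood in 1.42%, 3.65% and 3.04% of all promoters. Promoters of 5 of the 8 genes were searched, and those of *Hnf4g*, *Gata4* and *Gata6* were not. Of 3 *Foxa2* promoters, 1 held AGATAA at −183, and the *Foxa1* promoter held TGTTTAC at −141.

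None of the 7 tested factors passed edgeR's quasi-likelihood test between *Rest* pKO and control pancreas. Of 14550 genes tested, 4 passed (0.0275%), and these 4 fell in *Rest* pKO. Without adjustment, 0 of the 7 had a p under 0.05, against 8.87% of all genes, and DESeq2 and limma-voom called 0 of the 7 as well. The median log2 fold change of the 7 was 0.04, beside −0.0048 over all genes tested. *Gata6* was the only one whose libraries did not overlap between genotypes. Both its *Rest* pKO libraries lay below both controls, as for 21.2% of all genes tested, and a further 21.5% had the reverse order. Summed over the 8 genes, the counts came to 183 and 182 CPM in *Rest* pKO libraries, against 196 and 180 CPM in controls. These sums are on the TMM-corrected scale and are not shares of the library totals. The TMM factor was lowest in *Rest* pKO replicate 2, at 0.910, and highest in control replicate 2, at 1.06.

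**Figure D1:**
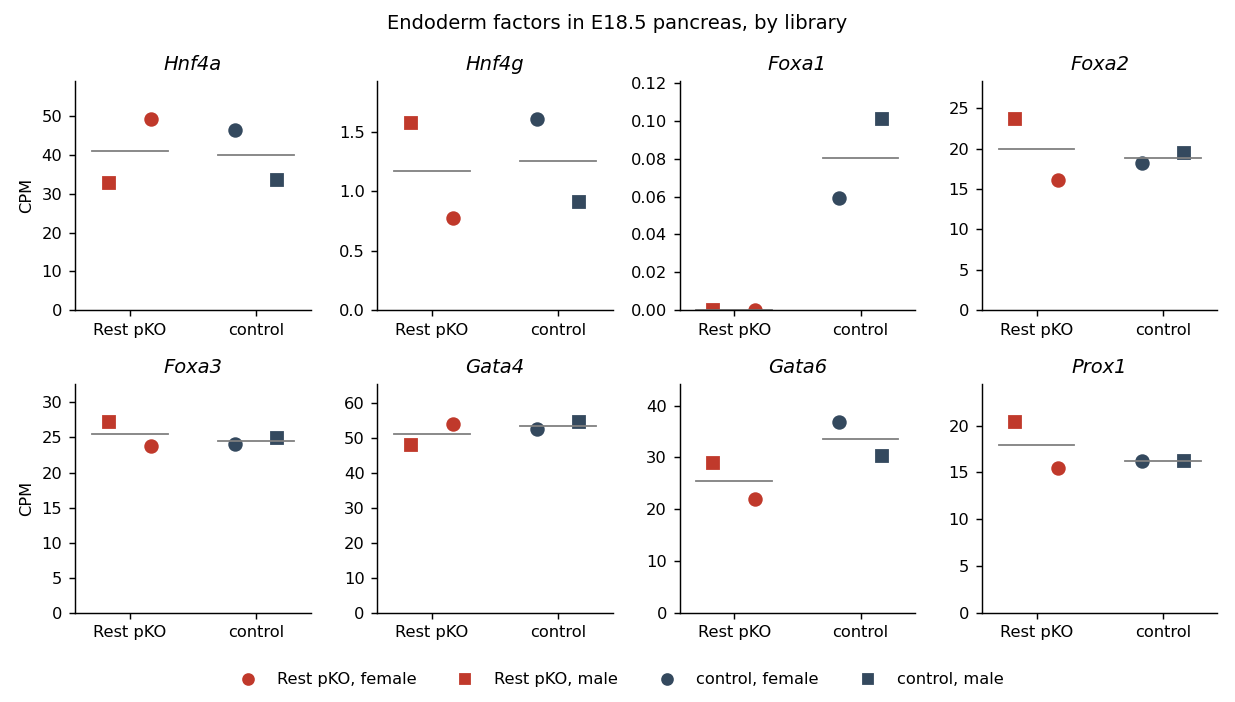
CPM of each of the 8 factors in every library, with *Rest* pKO left of control, circles for female and squares for male embryos, and grey lines for the mean of 2 libraries; each panel has its own axis from 0. The genotypes overlap for every tested factor but *Gata6*, whose *Rest* pKO libraries lie at 28.8 and 22.0 CPM, below control libraries at 36.9 and 30.3 CPM.

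*Hnf4a*, which encodes the nuclear receptor HNF4A, lies on chromosome 2 from 163332544 to 163398646 (mm9, plus strand, 14 exon blocks). It was counted at 32.9 and 49.3 CPM in *Rest* pKO libraries (710 and 1082 counts), against 46.6 and 33.6 CPM in controls (782 and 667 counts). The groups overlapped fully, with 1 high and 1 low library in each. Means were 41.1 ± 11.6 CPM in *Rest* pKO and 40.1 ± 9.13 CPM in controls (SD, n = 2 each). On the log2 scale *Rest* pKO over control was 0.04 (standard error 0.26, 95% interval −0.56 to 0.63), which allows a fold from 0.678 to 1.55 (edgeR adjusted p = 0.965). The gap between *Rest* pKO replicates exceeded that of 82.9% of the 9201 genes above 10 CPM, and the gap between controls that of 93.8%. Genes close to the level of *Hnf4a* were not compared separately. The coefficient of variation that edgeR fitted for *Hnf4a* was 0.200, beside a common value of 0.211 for all genes.

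The high *Hnf4a* library was the female one in both genotypes, a pattern seen after the values were known. *Hnf4a* averaged 47.9 CPM in female and 33.3 CPM in male libraries. With genotype kept in the model, the log2 difference (female over male) was 0.53 (standard error 0.27, 95% interval −0.00 to 1.05), and it did not pass the test (edgeR adjusted p = 0.9998). Both female libraries lay above both male ones for 10.9% of genes, and 0.440% of genes passed the test between sexes. Of the 7 factors, 1 (*Hnf4a*) had this order, and 2, *Foxa2* and *Foxa3*, had the reverse, with both male libraries above both female ones, as for 11.7% of genes. With sex in the model, 1.70% of genes were called between genotypes and 0 of the 7 factors were. The genotype difference of *Hnf4a* was 0.03 on the log2 scale (edgeR adjusted p = 0.991). That fit leaves 1 residual degree of freedom, so its intervals and calls lean on the spread pooled over all genes. They may look firmer than these libraries allow. Litter, batch and sex cannot be told apart in 2 female and 2 male libraries.

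**Figure D2:**
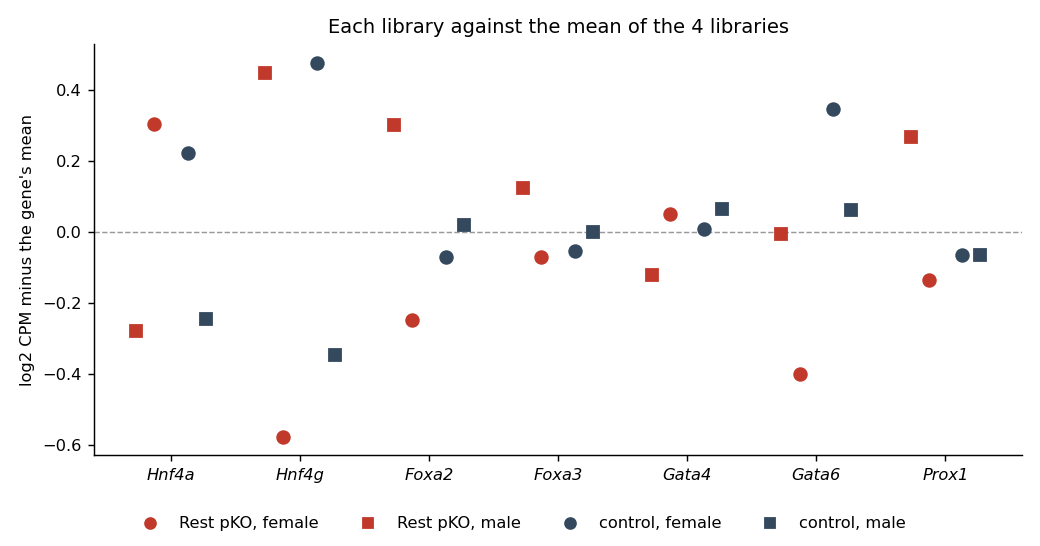
Log2 CPM of the 7 tested factors in each library, minus that gene's mean over the 4 libraries, with *Rest* pKO left of control and circles for female embryos. Both female libraries of *Hnf4a* stand above both male ones, *Foxa2* and *Prox1* spread more between the *Rest* pKO libraries than between the controls, and both *Rest* pKO libraries of *Gata6* stand below both controls.

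*Hnf4g*, the paralog HNF4G that is best known from the gut, lies on chromosome 3 from 3508030 to 3659775 (plus strand). It was scarce, at 1.58 and 0.774 CPM in *Rest* pKO libraries (34 and 17 counts) and 1.61 and 0.908 CPM in controls (27 and 18 counts). The groups overlapped, and replicate 1 was the higher in each. The log2 fold change of −0.09 had a standard error of 0.53 and an interval of −1.33 to 1.15 (adjusted p = 0.96), so that a fold between 0.398 and 2.22 could not be told from no difference at this depth. *Hnf4a* took 95.4% and 98.5% of the counts of the pair in *Rest* pKO libraries, against 96.7% and 97.4% in controls, as shares not corrected for length. The exact binomial intervals, which cover counting error only, ran from 93.7% to 99.1% over the 4 libraries. The 7 gut markers summed to 13.0 and 51.2 CPM in *Rest* pKO libraries, against 35.2 and 34.6 CPM in controls. Most of this was *Vil1*, a gene of the epithelial brush border, at 12.0 and 49.3 CPM against 32.3 and 32.2 CPM, while *Cdx1* and *Fabp2* were at 0 in all libraries. The part of gut cells in the *Hnf4g* values was not tested.

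*Foxa1* had 0 and 0 counts in *Rest* pKO libraries, against 1 and 2 counts in controls. These 3 counts among 80453109 (exact Poisson interval 0.619 to 8.77 counts) lay below the floor of 3 counts in each library, which equals 0.137 to 0.179 CPM. No fold was computed, and a difference was not detectable at this depth. The gene has a single annotated transcript on chromosome 12 from 58641618 to 58647108, and no other annotated gene overlaps it. Whether its reads were lost in the counting, as for the globin genes at 0, was not tested.

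*Foxa2*, whose product is required for endoderm and for islet alpha cell maturation, was counted at 23.7 and 16.2 CPM in *Rest* pKO libraries (510 and 355 counts), against 18.3 and 19.5 CPM in controls (307 and 386 counts). The *Rest* pKO libraries lay on either side of both controls. Means were 19.9 ± 5.29 CPM in *Rest* pKO and 18.9 ± 0.844 CPM in controls (SD, n = 2 each). This gave a log2 fold change of 0.08 (standard error 0.23, interval −0.45 to 0.61, adjusted p = 0.915 by edgeR). The gene spans chromosome 2 from 147868613 to 147872705 on the minus strand.

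*Foxa3*, a forkhead factor known from liver and from mucous cells of the gut, was the steadier FOXA gene. It was counted at 27.2 and 23.8 CPM in *Rest* pKO libraries (587 and 522 counts), against 24.1 and 25.0 CPM in controls (404 and 495 counts). Both controls lay between the *Rest* pKO libraries. The log2 fold change was 0.06 (standard error 0.18, interval −0.37 to 0.48), which allows a fold from 0.774 to 1.40 (adjusted p = 0.922). *Foxa3* is on chromosome 7 from 19598631 to 19608887 on the minus strand, 71.9 kb from the exact element printed above. *Foxa2* took 46.5% and 40.5% of the counts of *Foxa2* and *Foxa3* in *Rest* pKO libraries, against 43.2% and 43.8% in controls. The balance of this pair thus overlapped between genotypes.

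*Gata4*, which marks multipotent progenitors and then acinar cells, had the narrowest interval of the 7. It was counted at 48.1 and 54.2 CPM in *Rest* pKO libraries (1038 and 1190 counts), against 52.6 and 54.7 CPM in controls (884 and 1085 counts). The groups overlapped. Means were 51.2 ± 4.30 CPM in *Rest* pKO and 53.7 ± 1.48 CPM in controls (SD, n = 2 each), with a log2 fold change of −0.07 (standard error 0.17, interval −0.47 to 0.33, adjusted p = 0.898), so that folds below 0.722 or above 1.26 lay outside the interval. The gene lies on chromosome 14 from 63817759 to 63890529 on the minus strand.

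*Gata6*, which human genetics ties to pancreas formation, was counted at 28.8 and 22.0 CPM in *Rest* pKO libraries (622 and 482 counts), against 36.9 and 30.3 CPM in controls (619 and 600 counts). Neither *Rest* pKO library reached a control, the nearest pair being 28.8 and 30.3 CPM. That order held for 21.2% of all genes tested, so 1 of 7 is no more than the background. Means were 25.4 ± 4.87 CPM in *Rest* pKO and 33.6 ± 4.66 CPM in controls (SD, n = 2 each). Its log2 fold change of −0.40 (standard error 0.22, interval −0.91 to 0.10) did not pass edgeR's test (adjusted p = 0.637). It kept its sign under all 12 alternative settings, from −0.61 to −0.21, with a lowest adjusted p of 0.120. Mesenchymal markers moved the same way, with a sum of 4592 and 7205 CPM in *Rest* pKO libraries against 8675 and 7748 CPM in controls, and so did the mesothelial markers, at 137 and 213 CPM against 330 and 274 CPM. Of these, 5 of 8 mesenchymal and 4 of 5 mesothelial genes had both *Rest* pKO libraries below both controls. Of the mesenchymal genes, 1 (*Pdgfrb*) had a log2 fold change above 0, at 0.18. Within *Rest* pKO the order differed, since both sums were lower in replicate 1 and *Gata6* was lower in replicate 2. In controls both sums and *Gata6* were higher in replicate 1. *Gata6* is also expressed outside the epithelium, and the part of these cells in its values was not tested. An antisense noncoding gene, *1010001N08Rik*, shares 58 exonic bases (1.82%) with *Gata6*, and without a stated strand setting their reads there cannot be told apart.

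Set against each other within a library, *Gata4* took 62.5% and 71.2% of the counts of the GATA pair in *Rest* pKO libraries, against 58.8% and 64.4% in controls. The ratio of *Gata4* to *Gata6* counts was 1.67 and 2.47 in *Rest* pKO libraries, against 1.43 and 1.81 in controls. The lower *Rest* pKO library fell between the controls, so the ratio overlapped between genotypes. The highest share, 71.2% (exact binomial interval 68.9% to 73.3%), belonged to *Rest* pKO replicate 2, which also had the largest share of acinar counts, 35.8%. The other libraries were not in the same order for both. Control replicate 1, with 29.6% acinar counts, had the lowest *Gata4* share, and *Rest* pKO replicate 1 had the fewest acinar counts, 28.9%. The part of acinar cells in these shares was not tested.

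*Prox1*, the homeobox factor of progenitor, duct and islet cells and of lymphatic endothelium, was counted at 20.4 and 15.4 CPM in *Rest* pKO libraries (440 and 339 counts), against 16.2 and 16.2 CPM in controls (272 and 321 counts). The *Rest* pKO libraries lay on either side of the controls, which were nearly equal. Its log2 fold change was 0.15 (standard error 0.21, interval −0.35 to 0.64, adjusted p = 0.829 by edgeR). The summed lymphatic markers were 84.3 and 106 CPM in *Rest* pKO libraries, against 109 and 96.7 CPM in controls. Of the 6 lymphatic markers 5 were tested, 3 lay above 0 on the log2 scale and 2 below, *Lyve1* gave the most counts and *Ccl21a* was at 0 in all libraries. The part of lymphatic cells in the *Prox1* values was not tested. The duct markers summed to 2248 and 2166 CPM in *Rest* pKO, against 2070 and 1883 CPM in controls. Islet hormone cell markers summed to 4455 and 6537 CPM against 3073 and 2066 CPM. *Prox1* lies on chromosome 1 from 191945660 to 191994559, and 133 of its exonic bases (3.22%) are shared with the antisense gene *Gm17566*.

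**Figure D3:**
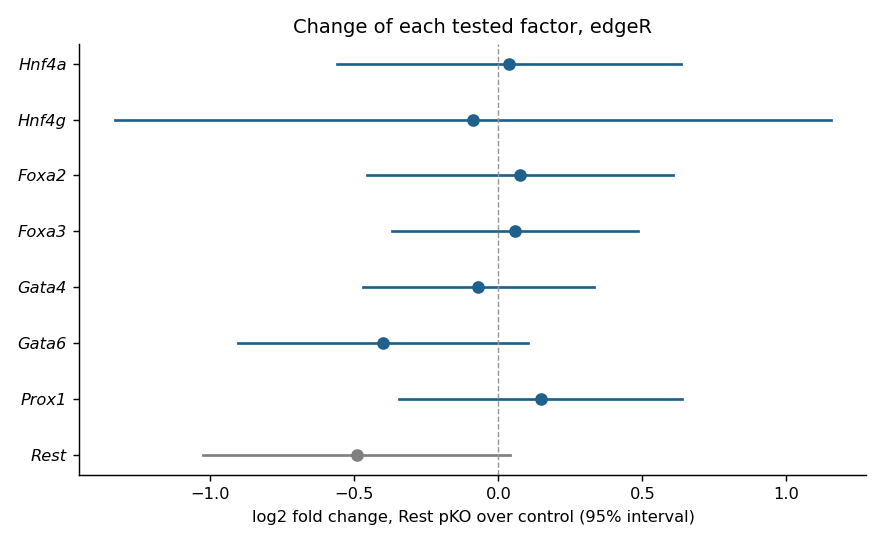
Log2 fold change of the 7 tested factors and of *Rest* (grey), *Rest* pKO over control, with edgeR 95% intervals. Every interval includes 0, from the narrowest, *Gata4* (−0.47 to 0.33), to the widest, *Hnf4g* (−1.33 to 1.15).

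Levels per length were compared as CPM per kb of merged exons, averaged over the 4 libraries. Lengths were merged over all GENCODE transcripts of a gene, whereas counts were over UCSC genes, so the order depends on both. *Gata4* came first at 13.4 ± 0.766 and *Foxa3* next at 12.3 ± 0.766 CPM per kb (SD, n = 4), and their libraries overlapped. *Gata6* at 9.23 ± 1.91, *Foxa2* at 8.18 ± 1.33 and *Hnf4a* at 8.09 ± 1.70 CPM per kb came below them and were not separated from each other. The highest *Gata6* library, at 11.54 CPM per kb, nearly met the lowest *Foxa3* library, at 11.66 CPM per kb. *Prox1* followed at 4.13 ± 0.546 CPM per kb, below every library of *Hnf4a*. *Hnf4g* at 0.279 (0.178 to 0.369 over the libraries) and *Foxa1* at 0.0126 ± 0.0155 CPM per kb were far below the rest. The acinar factor gene *Ptf1a* stood above all of them at 26.5 ± 0.968 CPM per kb and *Pdx1*, whose promoter drives the Cre, stood below *Prox1* at 2.45 ± 0.416 CPM per kb.

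**Figure D4:**
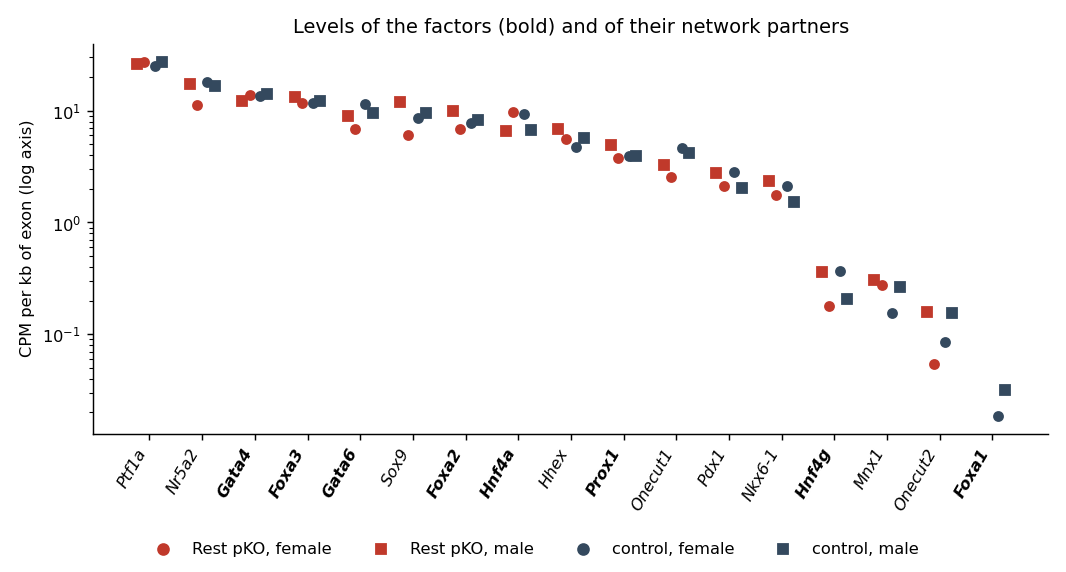
CPM per kb of exon (log axis) of the 8 factors (bold) and 9 network partners in every library, ordered by mean, with *Rest* pKO left of control; the 2 *Rest* pKO values of *Foxa1* are 0 and cannot be drawn. *Gata4* and *Foxa3* lead the 8 factors at means of 13.4 and 12.3 CPM per kb, and *Hnf4g* and *Foxa1* lie below 1.

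The gene most alike to each factor was sought among 52 candidates, as the smallest root mean square distance between log2 CPM profiles centred on their means over the 4 libraries. Each distance is read against the gene's own spread, the same measure taken to a flat profile. *Foxa3* was nearest to *Glis3* (0.03, own spread 0.08), *Prox1* to *Glis3* (0.07, own spread 0.16), *Gata6* to the lipid transfer gene *Mttp* (0.07, own spread 0.27) and *Foxa2* to *Prox1* (0.07, own spread 0.20). *Foxa2* and *Prox1* shared a high *Rest* pKO replicate 1 and a low replicate 2. *Hnf4g* was nearest to *Pdx1* (0.26, own spread 0.46). For *Hnf4a*, nearest to *Gata4* (0.24, own spread 0.26), and *Gata4*, nearest to *Ptf1a* (0.06, own spread 0.07), a flat profile was almost as near. These distances describe 4 libraries and share their depth and composition.

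The network around the factors was taken from lists of genes by role. Of 12 further pancreatic network factors, 0 were called by edgeR, 0 had an unadjusted p under 0.05, and 8 had a log2 fold change above 0 and 4 below, with a median of 0.03. For 3 of the 12 both *Rest* pKO libraries exceeded both controls, as for 21.5% of all genes. The smallest p belonged to *Onecut1*, a progenitor factor acting upstream of endocrine fate, with 6.96 and 5.38 CPM in *Rest* pKO libraries against 9.76 and 8.83 CPM in controls (log2 fold change −0.59, adjusted p = 0.562).

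Family relatives outside the set were scarce. Of 5, 3 were tested, and *Gata2*, *Gata5* and *Prox2* were all below 0 on the log2 scale without a call. *Gata2*, a factor of blood and endothelium, had 3.85 and 4.10 CPM in *Rest* pKO libraries against 4.76 and 7.31 CPM in controls (−0.61, edgeR adjusted p = 0.627). *Gata5* had 0.278 and 0.410 CPM against 0.536 and 0.857 CPM in controls (−1.01, adjusted p = 0.644), and *Prox2* had 0.974 and 1.55 CPM against 1.13 and 1.51 CPM (−0.07, adjusted p = 0.962). The erythroid factor gene *Gata1* was not tested, with 0.232 and 0.273 CPM in *Rest* pKO libraries against 0.357 and 2.82 CPM in controls. The erythroid markers summed to 21.8 and 21.3 CPM in *Rest* pKO libraries, against 31.9 and 129 CPM in controls, so that control replicate 2 was the high library in both.

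Of 16 cofactor genes, whose proteins work with HNF4, FOXA or GATA factors, 0 were called by edgeR, 13 had a log2 fold change below 0, and 9 had both *Rest* pKO libraries below both controls, the order that 21.2% of all genes had. Their median was −0.32, between −0.33 and −0.24 with each library left out. Without adjustment 1 was higher and 3 were lower in *Rest* pKO at a p under 0.05. The 1 higher was *Nr0b2*, which encodes SHP, a receptor without a DNA-binding domain that represses HNF4A, with 15.1 and 14.5 CPM in *Rest* pKO libraries against 7.50 and 9.08 CPM in controls (log2 fold change 0.84, edgeR adjusted p = 0.424). *Crebbp*, an acetyltransferase coactivator, had 28.6 and 23.3 CPM against 41.7 and 35.8 CPM in controls (−0.58, adjusted p = 0.495). *Nr2f2*, a nuclear receptor of mesenchyme and vessels, had 22.9 and 13.4 CPM against 25.5 and 34.1 CPM (−0.72, adjusted p = 0.540). The lower mesenchymal sums given beside *Gata6* moved in the same direction as the 13 lower genes, and their part in these values was not tested.

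Of 20 textbook target genes of the factors, 15 were tested, 0 were called by edgeR, and 4 lay above 0 and 11 below, with a median of −0.47. This median rested on control replicate 1, the library with the high liver markers. Without it, 10 lay above 0 and 5 below, the median was 0.80, and *Apoa1* and *Alb* were called in a fit that called 1.38% of all genes. With control replicate 2 left out instead, 6 of 16 were called, among them *Alb* and *Afp*, in a fit that called 0.671% of all genes. *Alb* had 52.3 and 8.66 CPM in *Rest* pKO libraries against 343 and 10.1 CPM in controls, *Afp* 12.7 and 2.46 CPM against 124 and 2.47 CPM, and *Apob* 0.510 and 0.182 CPM against 7.44 and 0.353 CPM (log2 fold change −3.46, adjusted p = 0.495 by edgeR). *Rest* pKO replicate 1 was the second highest in all 3 genes. The direction of *Alb* turned with the control left out. Its *Rest* pKO mean of 30.5 CPM lay above control replicate 2 (10.1 CPM) and below control replicate 1 (343 CPM). *Apoa1*, with a *Rest* pKO mean of 2.7 CPM against 0.252 and 25.9 CPM in the same controls, turned likewise. The calls of *Alb* in these fits thus contradict each other, and each rests on a lone control library. The number of liver cells in the libraries was not measured, and their part in these values was not tested.

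*Ttr*, the transthyretin gene made by liver and by islet alpha cells, followed another order. It had 187 and 258 CPM in *Rest* pKO libraries against 144 and 117 CPM in controls, so the groups did not overlap. Its log2 fold change was 0.76, with an unadjusted p under 0.05 and an edgeR adjusted p of 0.443, and it was called once *Rest* pKO replicate 1 was left out, in a fit that called 3.45% of all genes. The sum of the islet markers given beside *Prox1* had the same order of libraries, highest in *Rest* pKO replicate 2 and lowest in control replicate 2. Not every marker had it, since *Pax6*, *Neurod1* and *Isl1* were highest in *Rest* pKO replicate 1. The part of islet cells in the *Ttr* values was not tested. The glucose transporter gene *Slc2a2*, a target in islet and liver, had 28.3 and 28.8 CPM in *Rest* pKO libraries against 25.4 and 20.1 CPM in controls (0.33 on the log2 scale, adjusted p = 0.646).

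**Figure D5:**
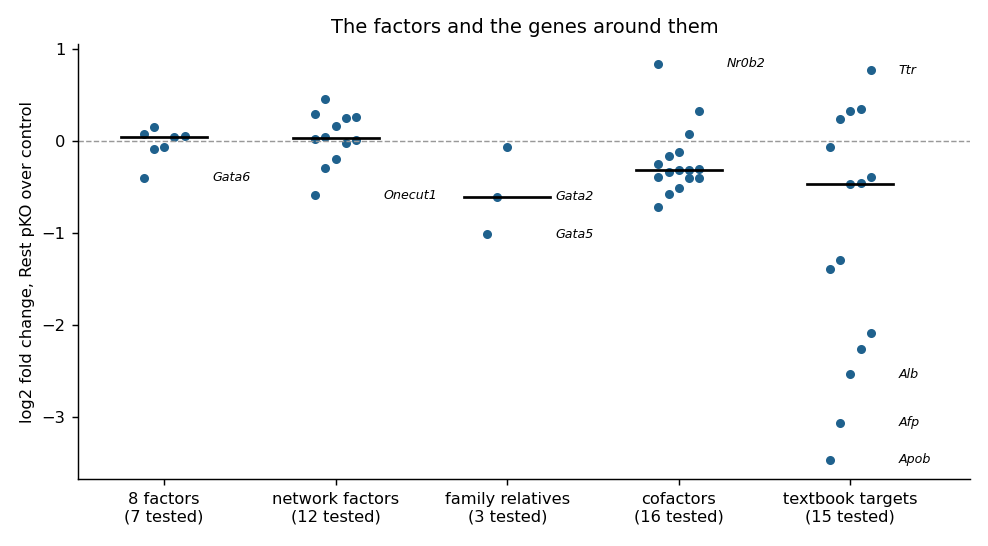
Log2 fold change, *Rest* pKO over control, of each tested gene among the 8 factors and 4 lists of genes around them, with black lines for medians. The 7 tested factors lie between −0.40 and 0.15, the cofactors have a median of −0.32, and the targets reach down to −3.46 at liver-type genes that were high in control replicate 1.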

How the data were processed

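Whole-number counts per gene were deposited for 4 libraries, 2 per genotype. The authors aligned paired-end reads with STAR to mm9, kept uniquely mapped reads and counted them over UCSC genes with featureCounts (1.5 in the submitters' processing notes). The strand setting is not given in the sources used here. The paper's methods state more pancreata per genotype than there are libraries, and which these are is not stated. If the 2 libraries of a group shared a litter or a preparation, p-values measure only the spread between these samples.

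Counts were tested with edgeR 4.0.16 in R 4.3.3 (filterByExpr by genotype, TMM, glmQLFit, glmQLFTest), with Benjamini-Hochberg adjustment over 14550 genes at 0.05. Standard errors are the size of the log2 fold change over the square root of F, and intervals are at 95%. Exact permutation of 2 against 2 libraries cannot give a p below 0.333 (two-sided), so no such test is given. Alternatives were DESeq2 1.42.0, limma-voom (limma 3.58.1), other scalings and filters, sex as a term, leaving out single libraries and a replicate block. The fits of the lists with a library left out, and those of *Hnf4a* by sex, were added after seeing the data. The procedure was also run on simulated counts of independent libraries without differences of sex or tissue make-up. That run cannot show how it behaves where libraries differ in these.

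The 8 genes and the lists were chosen with earlier results of these data known. All 8 are given in every library, and from each list of network factors, relatives, cofactors and targets its counts and the 3 genes with the smallest p. Some of these genes are not reported here, though the list counts hold them. *Slc2a2*, *Alb*, *Gata1*, *Pdx1* and single markers are outside this naming and were picked with their values known. Positions, exon lengths and the REST element search used the GENCODE annotation and genome of mm9, and promoters RefSeq's GRCm38.p6.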

Additional observations from a re-analysis of the deposited data

How the results depend on the processing

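None of the 7 tested factors was called under any of the 12 alternatives to edgeR's main fit, and *Gata6* was the only factor below 0 in all of them. The number of genes called across the table was less stable. It was 4 in the main fit, 102 by DESeq2, 247 with sex as a term, and between 1 (without *Rest* pKO replicate 2) and 514 (without *Rest* pKO replicate 1) when a library was left out, with 208 without control replicate 1 and 100 without control replicate 2. These fits assume that a lone library varies like the other group.

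Leaving out 1 library turned the direction of 6 factors. The log2 fold change ran from −0.28 to 0.30 for *Hnf4a*, from −0.68 to 0.37 for *Hnf4g*, from −0.22 to 0.33 for *Foxa2*, from −0.040 to 0.16 for *Foxa3*, from −0.15 to 0.018 for *Gata4* and from −0.065 to 0.34 for *Prox1*. The cause was not tested. Other scalings, filters and tools kept every direction.

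With the replicate block, 4 genes were called and no factor was. Same-numbered libraries deviated together with a correlation of 0.065 across the tested genes. With 2 libraries per genotype, and opposite sexes under each number, this value cannot decide whether the numbers pair the samples. With 2 libraries per genotype and 34 or fewer counts of *Hnf4g* per library, only large differences could have been called.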
